A study of Mus musculus with 11 samples.

Results

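Calcium-binding S100 proteins and annexins were examined in regulatory T cells (Tregs) of tumor and spleen. The genes described here were S100a4, S100a6, S100a8, S100a9, S100a10, S100a11, Anxa1, Anxa2 and Anxa5, which were taken by symbol. The table holds 7 of these 9 symbols among its 14604 genes, and S100a8 and S100a9 were not analysed here. These 7 all passed the filter on low values that left 13897 genes for testing. S100 proteins are small calcium-binding proteins that act inside cells on the cytoskeleton and on membranes and that some cells release as signals. Annexins bind phospholipid membranes in the presence of calcium, and several of them work together with an S100 partner, as annexin A2 does with S100A10. In T cells several of these genes are known to be higher in effector and memory cells than in resting cells, and macrophages and fibroblasts also express many of them.

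Tregs were sorted as live CD4+GITR+CD25+ cells from tumors of MC38, a mouse colon adenocarcinoma line implanted in every mouse, and from spleens, which the study's methods say were taken from these same mice. Which spleen library belongs with which tumor library is not stated. Each mouse carried floxed Cd177 alleles (CD177flox/flox), and mice with no more than these are called WT in the labels. KO mice carried in addition FOXP3-CreYFP, a Cre and yellow fluorescent protein driven from the Foxp3 locus, so that the deletion is directed to Foxp3-expressing cells and the WT mice lack the Cre. Cd177 itself was not analysed here, so the genotype labels were not checked. There were 3 WT and 3 KO spleen libraries and 3 WT and 2 KO tumor libraries. The deposited unit is log2(n + 1), where n is the authors' expression value for a gene summed over its transcripts. The files do not give the number of reads behind n, and whether n was scaled by gene length was not found in the sources, so levels were compared between libraries and not between genes. Totals of n ran from 712832 to 844331 in spleen and from 1103159 to 1304548 in tumor libraries. Nothing in the labels states that the libraries of a group came from separate mice, so the p-values measure the spread between libraries.

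All 7 genes were higher in the libraries of cells sorted as Tregs from tumor than in those from spleen. For all 7 each tumor library lay above each spleen library. These are bulk samples, and markers of monocytes, macrophages and fibroblasts were also higher in the tumor libraries, as given below. Of the genes tested, 78.9% differed in either direction, 43.1% were higher in tumor and 35.2% had each tumor library above each spleen library, so a call by itself did not set the 7 genes apart. Their sizes were large against the whole table: the median difference of the 7 genes was 3.99 on the log2 scale, beside 0.08 over all genes tested. Differences throughout are tumor minus spleen on the log2(n + 1) scale, which understates the change of genes with low values. Adjusted p-values come from limma with Benjamini-Hochberg adjustment over all 13897 genes.

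**Figure D1:**
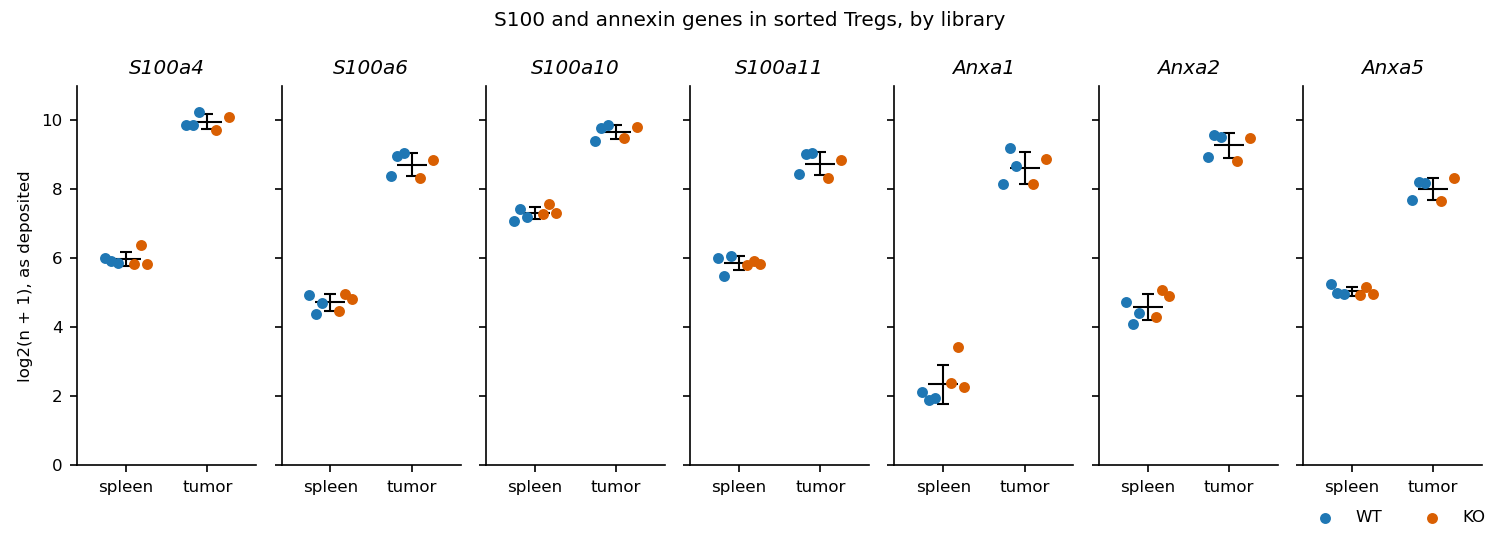
Each point is 1 library (blue WT, orange KO), with log2(n + 1) on the vertical axis and spleen or tumor on the horizontal axis of each panel; bars are the mean and SD over 6 spleen and 5 tumor libraries. In each of the 7 panels the 5 tumor libraries sit above the 6 spleen libraries, with the widest gap for Anxa1 (2.35 against 8.61 on average) and the narrowest for S100a10 (7.32 against 9.66).

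S100a4, which binds non-muscle myosin and is linked to cell motility, is found at 90603771 to 90606045 of chromosome 3, plus strand, in the GRCm38 (mm10) build. It was between 5.83 and 6.40 in the spleen libraries, with a median of 5.91. In tumor it was 9.88, 9.87 and 10.26 in WT replicates 1 to 3 and 9.73 and 10.10 in KO replicates 1 and 2. The lowest tumor library was 3.33 above the highest spleen library. The mean rose from 5.98 ± 0.21 (SD, n = 6) to 9.97 ± 0.21 (SD, n = 5), by 3.99 (limma, standard error 0.117 and adjusted p = 2.52e-11), or 15.8-fold in n + 1. Of the spleen libraries, KO replicate 2 at 6.40 stood apart from the others, which were at most 6.01. An annotated gene model, Gm42674, shares exon sequence with S100a4 on the same strand and was not analysed here, so reads could have been divided between them.

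S100a6, calcyclin, which binds the Siah-interacting protein encoded by Cacybp, lies on chromosome 3 from 90612882 to 90624181 on the plus strand, downstream of S100a4. Spleen libraries ranged from 4.40 to 4.97 with a median of 4.78. Tumor values were 8.40, 8.98 and 9.05 in WT and 8.32 and 8.85 in KO libraries. The rise of 4.0 (limma, standard error 0.152 and adjusted p = 1.56e-10) was close to that of its neighbour S100a4, and over the 11 libraries the mean-centred profiles of these 2 genes differed by 0.169 on average. WT replicate 1 and KO replicate 1 were the lowest tumor libraries for S100a6.

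S100a11, a partner of annexin A1, and S100a10, the partner of annexin A2 and the S100 protein that does not need calcium for its binding, lie next to each other further along chromosome 3, from 93520488 to 93526287 and from 93555080 to 93564643, both on the plus strand. S100a11 ranged from 5.49 to 6.08 in spleen (median 5.88). In tumor it was 8.46, 9.03 and 9.06 in WT and 8.34 and 8.85 in KO libraries. It rose by 2.89 (limma, standard error 0.143 and adjusted p = 1.42e-09), or 7.41-fold in n + 1. Transcripts of 2 other gene models, Gm12854 and Gm7665, share stretches of at least 100 bases with S100a11 at 95% identity or more, so its reads could have been shared with them.

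S100a10 had the smallest rise of the 7 genes. Its spleen values ran from 7.09 to 7.58 (median 7.31), and its tumor values were 9.40, 9.77 and 9.86 in WT and 9.48 and 9.81 in KO libraries. The rise of 2.34 (limma, standard error 0.106 and adjusted p = 7e-10) ranked 865th by size of rise among all genes tested. It still stood above 93.8% of them.

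Anxa1, a glucocorticoid-induced protein whose fragments signal through formyl peptide receptors, lies on chromosome 19 from 20373428 to 20390944 on the minus strand and showed the largest rise of the 7. Spleen libraries were between 1.90 and 3.43, with a median of 2.20. Tumor values were 8.15, 9.21 and 8.68 in WT and 8.15 and 8.87 in KO libraries. The mean went from 2.35 ± 0.56 (SD, n = 6) to 8.61 ± 0.46 (SD, n = 5), a rise of 6.27 (limma, standard error 0.270 and adjusted p = 4.61e-10) that ranked 41st among all genes tested and corresponds to 76.9-fold in n + 1. The highest spleen library was KO replicate 2 at 3.43, while the other 5 did not exceed 2.39. Without that library the difference was 6.48.

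Anxa2, which links membranes to actin and, with S100A10, holds plasminogen activator at the cell surface, lies on chromosome 9 from 69453620 to 69491795 on the plus strand. Spleen libraries ranged from 4.11 to 5.09 (median 4.58). Tumor values were 8.93, 9.59 and 9.53 in WT and 8.84 and 9.48 in KO libraries. It rose by 4.68 (limma, standard error 0.193 and adjusted p = 3.12e-10), or 25.6-fold in n + 1. An opposite-strand gene model, Gm16144, overlaps an exon of Anxa2, and whether the reads carry strand is not given in the sources used here.

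Anxa5, which binds the phosphatidylserine that dying cells expose, lies on chromosome 3 from 36448923 to 36475894 on the minus strand, far from the S100 genes. Spleen libraries were tightly grouped between 4.93 and 5.25 (median 4.99). Tumor values were 7.70, 8.21 and 8.18 in WT and 7.66 and 8.32 in KO libraries. The rise of 2.97 (limma, standard error 0.124 and adjusted p = 3.45e-10) was near that of S100a11, and the centred profiles of these 2 genes differed by 0.126 on average over the 11 libraries. By an exact two-sided permutation test over libraries, each of the 7 genes reached p = 0.0043, the smallest that 6 against 5 libraries can give.

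The sequences before the start sites are shown because the 7 genes rose together. RefSeq promoters on GRCm38.p6 were matched by symbol for 8 of the 9 genes. These 8 include S100a8 and S100a9, for which no rise was measured here, and S100a10 was not matched. Within the 250 bases before the start, on either strand, the letters TATAAA were found in 4 of the 8 (S100a4, S100a8, Anxa1 and Anxa2) and in 12.4% of all 32851 promoters. The letters TGANTCA, where N is any base, take in the AP-1 site and read the same on both strands. They were found in 2 of the 8 (S100a11 and Anxa2, as TGAGTCA) and in 6.75% of all promoters. That share counts any base at N, so it is not that of AP-1 sites alone. Below, capitals mark these letters, first in the 100 bases before the start of S100a4 at chr3:90603670-90603769, then around the match of Anxa1 at chr19:20390687-20390715 on the minus strand, around that of Anxa2 at chr9:69453576-69453605, and around the matches of S100a11 at chr3:93520348-93520377 and chr3:93520446-93520475, all on the plus strand but Anxa1. The start is the 1 RefSeq gives. GENCODE M21 also has transcripts that start further upstream, so the printed stretch of Anxa1, and the TATAAA matches of S100a8 and Anxa2, overlap an exon of the same gene. A match says that these letters are present and no more.
S100a4: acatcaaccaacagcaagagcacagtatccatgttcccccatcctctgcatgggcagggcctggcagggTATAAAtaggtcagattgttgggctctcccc
Anxa1: cagttcatatccTATAAAatcaggagtcc
Anxa2: ttccaagttggaTGAGTCAcccagcagggt
S100a11, distal: acagagacctgtTGAGTCAcagggactaca
S100a11, proximal: gcgggcacagccTGAGTCAggctgaggggc

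S100a10 and Anxa2 encode partners of 1 complex, so their values were also set against each other within each library, where a scaling factor common to a library cancels. S100a10 minus Anxa2 was 2.36, 3.32 and 2.79 in WT spleen and 2.98, 2.49 and 2.41 in KO spleen libraries. It was 0.46, 0.17 and 0.34 in WT tumor and 0.63 and 0.32 in KO tumor libraries. The groups did not overlap. The mean fell from 2.73 ± 0.38 (SD, n = 6) to 0.39 ± 0.17 (SD, n = 5), a difference of -2.34 (exact two-sided permutation test, p = 0.0043), so Anxa2 rose more than S100a10 in the tumor libraries. The offset itself is not to be read as a ratio of molecules, since it was not found whether n was scaled by gene length.

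**Figure D2:**
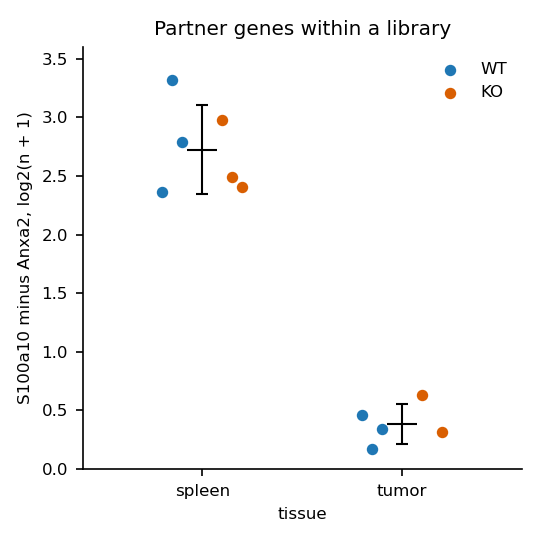
Each point is S100a10 minus Anxa2 in log2(n + 1) within 1 library (blue WT, orange KO), by tissue on the horizontal axis; bars are the mean and SD. Spleen libraries lie between 2.36 and 3.32 and tumor libraries between 0.17 and 0.63.

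The rise was present in each genotype. In WT mice 7 of the 7 genes passed as higher, where 39.2% of all genes did, and in KO mice 7 of the 7 passed, where 36.2% of all genes did. S100a4 rose by 4.06 in WT (standard error 0.170) and by 3.90 in KO mice (standard error 0.190). Anxa1 rose by 6.68 (standard error 0.333) and 5.81 (standard error 0.372), the widest gap between genotypes among the 7. The difference between genotypes in the rise, KO minus WT, was -0.87 for Anxa1 (95% interval -1.97 to 0.24) and -0.54 for Anxa2 (-1.40 to 0.32). For S100a4, S100a6, S100a10, S100a11 and Anxa5 it was between -0.29 and 0.02, with intervals that reached from -1.01 to 0.62. None of the 7 passed (adjusted p = 0.9997 for each, limma), and 0% of all genes did, with 383 at an unadjusted p under 0.05.

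**Figure D3:**
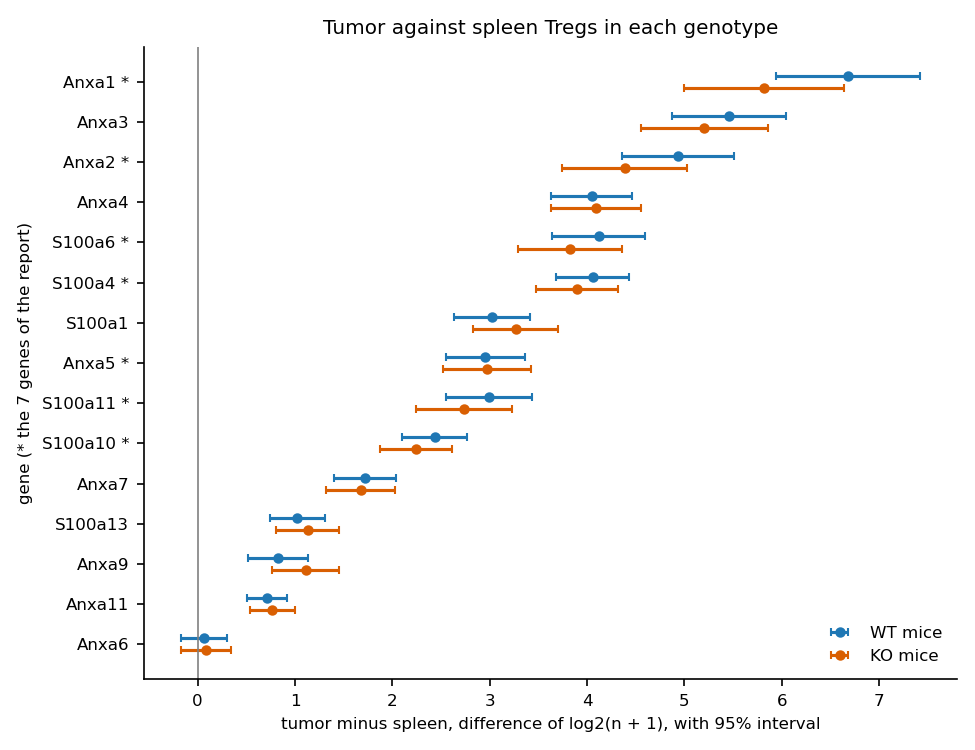
Points are the tumor-minus-spleen difference of log2(n + 1) in WT (blue) and KO (orange) mice for the 15 S100 and annexin genes tested, with 95% intervals from limma; asterisks mark the 7 genes of the opening paragraph. Anxa6 sits at 0, and the intervals of WT and KO overlap for each gene.

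KO and WT mice were also compared within each tissue, and none of the 7 genes passed. In spleen, KO minus WT was 0.70 for Anxa1 (95% interval -0.04 to 1.44, unadjusted p = 0.0608, adjusted p = 0.9997, limma) and 0.36 for Anxa2 (-0.22 to 0.93). The other 5 genes lay between -0.05 and 0.16. The higher Anxa1 mean rests largely on KO replicate 2: KO replicates 1 to 3 were 2.39, 3.43 and 2.26, and WT replicates were 2.13, 1.90 and 1.96. Across all genes 0% passed in spleen, with 281 at an unadjusted p under 0.05. In tumor, KO minus WT was between -0.25 (S100a11, 95% interval -0.74 to 0.24) and -0.03 (S100a10, -0.40 to 0.34), and 0.0072% of all genes passed. With 2 or 3 libraries a group, differences inside these intervals could not be told from 0.

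Among the other S100 genes, 3 of 10 on the list are in the table and 2 were tested. S100a1, best known from muscle, rose by 3.15 (standard error 0.133), from 1.86 ± 0.24 (SD, n = 6) to 5.01 ± 0.21 (SD, n = 5). S100a13, which takes part in the export of proteins that lack a signal peptide, rose by 1.10 (standard error 0.110). S100b was near the bottom of the scale, averaging 0.42 in spleen and 0.41 in tumor, and was not tested.

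The other annexins did not move as 1 block. Of 9 on the list, 6 were tested, 5 rose and 1, Anxa6, did not pass; their median difference was 1.32. Anxa3 rose by 5.34 (standard error 0.182) from values between 0.60 and 1.37 in spleen to values between 5.77 and 6.67 in tumor. Anxa4 rose by 4.08, Anxa7 by 1.70, Anxa9 by 0.95 and Anxa11 by 0.74, the last no longer past the threshold with equal library totals (0.13, adjusted p = 0.144, limma). Anxa6, an annexin that is abundant in lymphocytes, had spleen values from 7.26 to 7.48 and tumor values from 7.26 to 7.67 that overlapped (limma, 0.08 with a standard error of 0.0714 and adjusted p = 0.324). Its direction depended on the scaling, from -0.64 after quantile normalization to 0.95 with an equal T cell lineage median, both past the threshold. Other gene models share same-strand exon sequence with Anxa3 and Anxa9 and opposite-strand sequence with Anxa4, Anxa9 and Anxa11, so their values are uncertain to that extent.

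Of 17 receptors, ligands and binding partners of these proteins, 16 were tested: 11 rose, 2 fell and 3 did not pass, with a median difference of 1.87. Plau and Plaur, of the plasminogen system that the annexin A2 complex serves, had the 2 largest rises of this list. Plau, urokinase, went from 1.02 to 7.44 (difference 6.41, standard error 0.237), its receptor Plaur rose by 6.07 and Plat, tissue plasminogen activator, by 3.19. Plgrkt, a plasminogen receptor, fell by 0.67 as deposited. With an equal T cell lineage median it was at 0.20 and did not pass. Ahnak, a scaffold that binds S100A10 and annexin A2, rose by 2.27 (standard error 0.117), near the 2.34 of S100a10.

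Of the formyl peptide receptors, which annexin A1 fragments engage, Fpr2 rose by 3.05 (standard error 0.298), from at most 0.86 in spleen to between 2.47 and 4.55 in tumor, and Fpr1 averaged 1.26 in spleen and 1.88 in tumor and did not pass as deposited (0.62, adjusted p = 0.0617, limma). Fpr1 passed as higher in WT mice (0.91, adjusted p = 0.0485, limma), with an equal T cell lineage median (1.49, adjusted p = 0.000376, limma) and without spleen WT replicate 1 (0.71), tumor WT replicate 1 (0.80) or tumor KO replicate 1 (0.76). Receptors of released S100 proteins went in opposite directions. Ager, which encodes RAGE, fell by 1.81 (standard error 0.135), and its tumor libraries (0.57 to 1.08) lay below all spleen libraries (2.39 to 2.92). Tlr4 rose by 3.36, Cd36 by 4.01, Bsg by 2.62 and Nptn by 1.34, and Mcam did not pass as deposited (-0.32, adjusted p = 0.0691, limma). Mcam passed as lower in 7 alternatives (-0.37 to -0.72, among them quantile normalization, median centring, equal totals, the replicate block, and leaving out spleen WT replicate 1 or tumor WT replicate 2) and as higher with an equal T cell lineage median (0.55, adjusted p = 0.022, limma). Pla2g4a, a phospholipase that annexin A1 restrains, rose by 1.47. Myh9, the non-muscle myosin that S100A4 binds, was 8.48 ± 0.12 (SD, n = 6) in spleen, 8.50 ± 0.07 (SD, n = 5) in tumor, and did not pass as deposited. It passed as lower after quantile normalization (-0.86), median centring (-0.20) and with equal totals (-0.61), and as higher with an equal T cell lineage median (0.90), so its direction was set by the scaling. Cacybp, the partner of S100A6, rose by 0.42 as deposited and did not pass after quantile normalization (0.0881), median centring (0.20) or with equal library totals (-0.20).

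Genes that are often high together with S100a4 and S100a6 in effector and memory T cells rose as well, 9 of 9, with a median of 2.18. Lgals3 rose by 6.48, Lgals1 by 3.90, Vim by 3.66, Capg by 2.69, Tagln2 by 2.18, Emp3 by 2.04, Cd44 by 2.04, Crip1 by 1.86 and Itgb1 by 0.80, the last not past the threshold after quantile normalization (0.0483) or with equal totals (0.18). Several of these are abundant in macrophages and fibroblasts too, so this list is not particular to T cells. In these bulk samples a change in the share of cells of a type and a change in RNA per cell cannot be told apart.

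Genes of the sort were present in each library, with Cd4 at 7.07 or higher, Il2ra (CD25) at 6.51 or higher and Tnfrsf18 (GITR) at 6.30 or higher. Foxp3, whose protein was not used in the sort, was at 4.72 or higher. As deposited, Tnfrsf18 (1.08) and Ctla4 (0.57) rose, Ptprc (-1.15), Ikzf2 (-1.09), Foxp3 (-0.85) and Cd4 (-0.42) fell, and Il2ra (-0.27) did not pass. Several of these calls depend on the scaling. With an equal T cell lineage median Foxp3 was at 0.0262 and Ikzf2 at -0.21 (adjusted p = 0.228, limma), both no longer past the threshold, while Cd4 was at 0.46 and Il2ra passed as higher (0.61). After quantile normalization Ctla4 was at -0.29 and Il2ra passed as lower (-0.93). Of 13 T cell lineage markers 11 fell and 2 did not pass, with a median of -0.75 and a summed level, log2(summed n + 1), of 11.18 to 11.29 in spleen and 10.19 to 10.94 in tumor. Markers of monocytes and macrophages moved with the 7 genes: 14 of 14 rose, with a median of 5.15 and a summed level of 7.49 to 8.63 in spleen and 13.33 to 13.89 in tumor. Lyz2 reached 12.35 and Apoe 11.05 in tumor. None of the 14 was near 0 in spleen, where the lowest, Fcgr1, averaged 1.02. Their part in the rise of the S100 and annexin genes was not tested.

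Fibroblast markers rose as well, 5 of 6 tested, with a median of 5.27 and a summed level of 1.84 to 2.18 in spleen and 8.95 to 10.02 in tumor. Col3a1 was at 8.84 and Col1a1 at 7.0 in tumor, and Pdgfrb and Postn were near 0 in spleen (0.12 each). Of 12 neutrophil markers only 5 were tested, so the level of the whole list is not known. Of these 5, 3 rose and 1, Cxcr2, fell from 3.66 to 1.96. Their summed level was 4.08 to 4.64 in spleen and 4.75 to 5.52 in tumor. Of them Mmp9 was at 3.82 and Csf3r at 3.64 in tumor, while Mpo was at 0.43. CD8 T and NK cell markers had 2 rises (Cd8a by 3.99, Cd8b1 by 2.48) and 1 fall in 4 tested (summed level 3.49 to 4.57 and 4.94 to 6.83), and all 3 B cell markers tested fell (3.51 to 5.33 and 1.96 to 3.85), with Cd79b at 2.29 and Ms4a1 at 1.14 in tumor. Of 3 epithelial markers tested Cdh1 rose to 4.08 and Lgals4 fell to 2.14 (3.34 to 4.02 and 4.22 to 4.97), and Krt18 was near 0 in both tissues. Of 6 erythroid and platelet markers 5 fell and Pf4 rose to 8.69, while Ppbp was at 2.60 (5.87 to 8.23 and 7.92 to 9.28). Their parts in the result were not tested either.

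**Figure D4:**
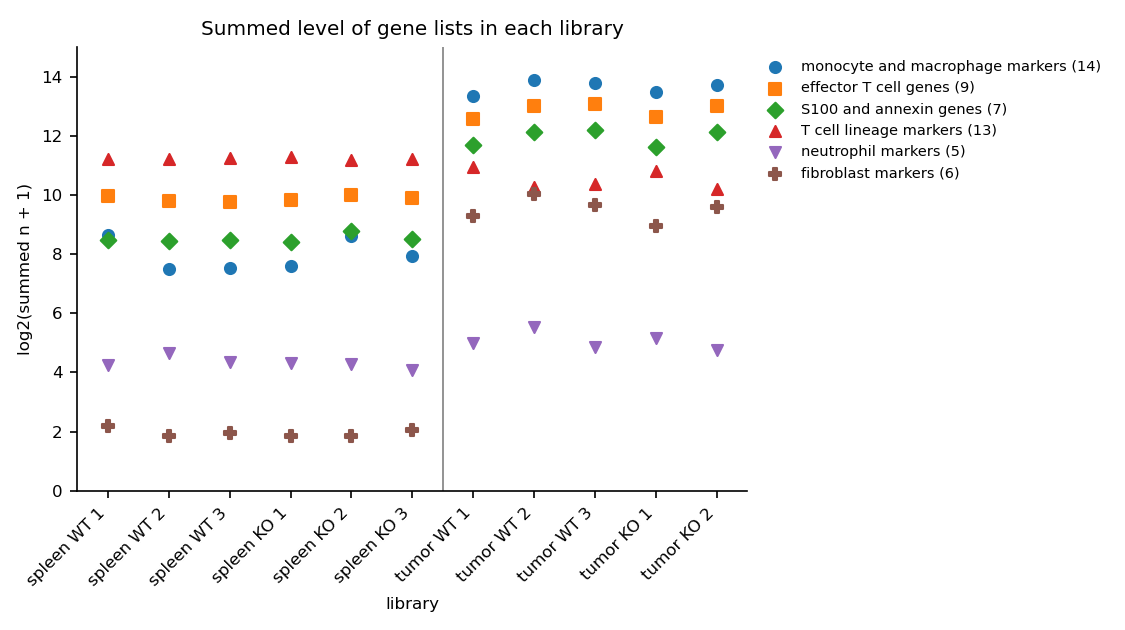
Each point is the log2 of the summed n + 1 of 1 gene list in 1 library, with the 11 libraries on the horizontal axis and the number of genes summed in brackets. The summed level of the 7 S100 and annexin genes is 8.42 to 8.79 in spleen and 11.62 to 12.18 in tumor, while the T cell lineage markers are lower in each tumor library than in each spleen library; levels are not to be compared between lists.

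Within the tumor libraries the summed level of the 7 genes was 11.68, 12.13 and 12.18 in WT replicates 1 to 3 and 11.62 and 12.11 in KO replicates 1 and 2. The 2 lowest, WT replicate 1 and KO replicate 1, also had the lowest summed monocyte and macrophage markers, 13.33 and 13.49, where the other tumor libraries had 13.72 to 13.89. Each of the 7 genes but S100a4 (9.88 in WT replicate 1, 9.87 in WT replicate 2) was also lowest in these 2. Not every marker was. Ccr2 was highest in them, at 7.29 and 7.59 against 6.69 to 7.22, and Lyz2, Ly6c2 and Fcgr1 were not lowest in both. The other monocyte and macrophage markers were. WT replicate 1 and KO replicate 1 had the lowest summed fibroblast markers as well, 9.28 and 8.95 against 9.59 to 10.02. That sum is led by Col3a1, at 8.89 and 7.93 against 9.04 to 9.21. Single fibroblast markers were not all lowest there. In KO replicate 1, Col1a1, Col1a2 and Fap (6.88, 6.52 and 2.51) were above KO replicate 2 (6.75, 5.89 and 0.99). Postn and Pdgfrb were below KO replicate 2. The summed erythroid and platelet list was lowest in WT replicate 1 and KO replicate 1 too, 7.92 and 8.36 against 8.97 to 9.28. That sum follows Pf4, by far its highest gene in tumor, at 7.83 and 8.23 against 8.92 to 9.25. The erythroid genes Hba-a1 (2.82 and 3.82 against 0.92 to 2.80) and Hbb-bt (2.21 and 2.95 against 1.25 to 2.03) were highest in these 2 libraries. WT replicate 1 and KO replicate 1 also had the highest summed T cell lineage markers, 10.94 and 10.81 against 10.19 to 10.38. Among spleen libraries, KO replicate 2 had the highest summed level of the 7 genes (8.79, the others 8.42 to 8.51), and WT replicate 1 and KO replicate 2 had the highest monocyte and macrophage markers, 8.63 and 8.61 (the others 7.49 to 7.92). These libraries were noticed after their values were seen.

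The scaling changed the sizes and not the calls of the 7 genes. The T cell lineage scaling, which shifts each library to the same median of the 13 T cell markers, gave the largest differences, from 3.22 for S100a10 to 7.14 for Anxa1. Equal library totals gave 1.71 for S100a10 and 5.70 for Anxa1, and quantile normalization 1.48 and 5.71. The quantile value of S100a10 is the 1 value of the 7 genes more than 1.5 times from its value as deposited. The median over all genes, 0.08 as deposited, became -0.16 (quantile), -0.14 (median centring), -0.44 (equal totals) and 0.96 (T cell lineage). Above that median, S100a10 stood between 1.64 and 2.26 and Anxa1 between 5.87 and 6.18. Of all calls, 54.5% were higher in tumor as deposited, 42.1% after quantile normalization, 43.7% after median centring, 29.6% with equal totals and 90.5% with the T cell lineage scaling.

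**Figure D5:**
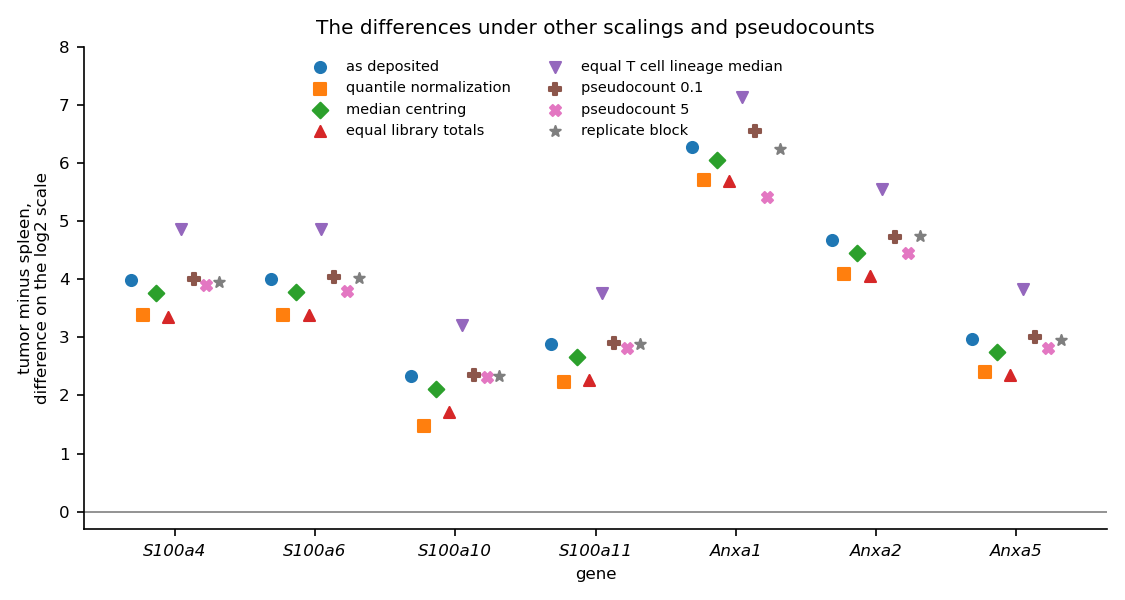
Points are the tumor-minus-spleen difference of each of the 7 genes (horizontal axis) on the log2 scale, as deposited and under 7 other scalings, pseudocounts or designs named in the legend. Each value is above 1, from 1.48 (S100a10, quantile normalization) to 7.14 (Anxa1, equal T cell lineage median).

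For each of the 7 genes the most similar other profiles over the 11 libraries were looked up, by the mean absolute difference of log2 values after each gene's own mean was subtracted. For S100a4 these were Il13ra1 (0.122), a receptor chain for IL-13, and Tlr13 (0.131), an endosomal receptor of bacterial RNA. For S100a6 they were Rab31 (0.085) and Ctsc (0.099), which encodes cathepsin C. S100a10 was nearest to Rnf13 (0.066) and Ldha (0.083), and S100a11 to Tnxb (0.086) and Pkm (0.109), Ldha and Pkm being enzymes of glycolysis. Anxa1 was nearest to F13a1 (0.191), the A chain of coagulation factor XIII, and Emp1 (0.218). Anxa2 was nearest to Scpep1 (0.167) and Fcer1g (0.167), a signalling chain of Fc receptors, and Sept10 (0.089) was among the nearest to Anxa5. The gap between tissues dominates this measure, and it is given as a description.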

How the data were processed

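The authors sequenced RNA of sorted Tregs after ribosomal RNA depletion, pseudoaligned single-end reads with kallisto to the mm10 build, aggregated estimated counts by gene symbol in sleuth 0.30.0 and deposited log2(n + 1) values. For kallisto, version and annotation are not named in the labels or methods. Without read numbers in the files, counting error could not be computed, and precision rests on the spread between libraries. Columns were matched to samples by title.

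Values were used as deposited. The filter kept genes whose log2(n + 1) averaged 0.5 or more (13897 kept, 707 removed). Tests used limma 3.58.1 (R 4.3.3; lmFit, eBayes with trend; Benjamini-Hochberg, threshold 0.05). Tumor was set against spleen with genotypes pooled, as the study does, and a model with 4 group means gave the other comparisons. The fit was run on simulated data in which only a small share of genes changed. In the deposited values most genes differed between tissues, so that run does not test the calls given here. Exact permutation tests used scipy 1.17.1, positions GENCODE M21 on GRCm38, and near copies blastn 2.17.0.

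The 9 genes and the lists (other S100 genes and annexins, partners, effector T cell genes, sort and Treg genes, markers of T cells and of other cells) were chosen with earlier results of these data known. All 9 genes, all measured genes of the first 5 lists, the 2 highest and the 2 most changed markers of a cell type list, and the 2 nearest profiles per gene could be named; 1 of these profiles is not reported here. Other markers, given for being near 0 or for their values in single libraries, were chosen after their values were seen. Alternatives were scaling, pseudocount, filter, variance trend, genotype covariate, replicate block and leaving out each library; equal totals without the top 2 genes (Gm12896, Gm20594) were added after the data were seen.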

Additional observations from a re-analysis of the deposited data

Results flagged for a closer look

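In 122 groups of libraries, each for 1 gene or list in 1 tissue, the highest or lowest library was compared with its nearest neighbour. In 11 the gap was wide for the group's range, where chance at 1 in 20 gives about 6.1. Of the 7 genes, S100a4 was 6.40 in spleen KO replicate 2 (the others 5.83 to 6.01) and Anxa1 was 3.43 in the same library (the others 1.90 to 2.39). In that library Plaur was 3.11 (0.94 to 1.72) and the summed level of B cell markers was 5.33 (3.51 to 4.08). In spleen WT replicate 1, Anxa9 was 1.09 (0.80 to 0.88) and the summed level of the partner genes 9.67 (9.47 to 9.54). In spleen WT replicate 2, Plau was 2.05 (0.63 to 1.0) and Cd44 5.73 (5.96 to 6.10). Capg was 6.17 in spleen KO replicate 3 (6.47 to 6.65). In tumor, Mcam was 1.75 in WT replicate 2 (1.21 to 1.33), and the summed level of CD8 T and NK cell markers was 4.94 in KO replicate 2 (6.33 to 6.83). No cause was tested.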

How the results depend on the processing

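The 7 S100 and annexin genes were called as higher in tumor in all 23 alternatives, and in WT and in KO mice in all 22 that apply there. The interaction and the genotype comparisons called 0 of the 7 in each. Over these alternatives, with genotypes pooled, the genes called higher in tumor ran from 3286 (equal library totals) to 10085 (equal T cell lineage median), each of 13897 tested. A call as higher was thus the usual outcome under some settings. The adjusted p of the 7 genes, with genotypes pooled, lay between 3.95e-13 and 2.2e-06 (limma). With each library left out S100a10 stayed between 2.29 and 2.41 and Anxa1 between 6.12 and 6.48. S100a10 minus Anxa2 stayed between -2.41 and -2.22 with a library left out and was -2.39 and -2.15 with pseudocounts of 0.1 and 5. The replicate block called 7 of 7 as well (S100a4 3.96), and 10512 genes in all against 10971 without it. For tumor against spleen with genotypes pooled, it pairs libraries by number within a genotype, and spleen KO replicate 3 has no tumor partner. In the model with 4 group means, WT and KO libraries of the same replicate number shared a block. Deviations of same-numbered libraries within a genotype correlated between -0.128 and 0.0375. No label ties a number to a mouse, so the numbers were not taken as pairs.

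Of 61 single-gene results, 48 changed neither sign nor call in any alternative. The cause of the changes was not tested. After quantile normalization Anxa6 was at -0.64, Myh9 at -0.86 and Ctla4 at -0.29, and after median centring Anxa6 at -0.14 and Myh9 at -0.20. With equal totals, and then without the top 2 genes, Anxa6 was at -0.55 and -0.53, Myh9 at -0.61 and -0.59, Cacybp at -0.20 and -0.18 and Ctla4 at -0.0565 and -0.0417. With an equal T cell lineage median Mcam was at 0.55, Plgrkt at 0.20, Foxp3 at 0.0262, Il2ra at 0.61 and Cd4 at 0.46, and Ikzf2, at -0.21, lost its call. Anxa6, Mcam, Fpr1, Il2ra and Myh9 did not pass as deposited and passed in some alternatives, all but Fpr1 in both directions. With a library left out, Myh9 ranged up to 0.0627, and was at -0.00202 without spleen WT replicate 2 and -0.00169 without spleen KO replicate 2.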
